A study of Mus musculus with 24 samples.

Results

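The genes described here are Ccl2, Ccl7, Ccl8 and Ccl12, which encode chemokines that attract monocytes. Ccr2, described with them, encodes a receptor for chemokines of this family. All 5 were present among the 547 genes of a mouse immunology panel. They were picked from measured values, because Ccl8 was far lower in both antibiotic groups than in controls, so the differences of these genes from Control are given as a description with no test. Transcripts were counted with NanoString probes, without amplification, in total RNA from the terminal ileum of 24 C57BL/6 mice at week 7 of life. Control mice (n = 7, 4 males and 3 females) drank plain non-acidified water. PAT1 mice (n = 7, 4 males and 3 females) received 1 early course of tylosin, a macrolide antibiotic, by way of their nursing mother. PAT3 mice (n = 10, 4 males and 6 females) received that course and further pulses after weaning, 3 courses in all. Groups follow the sample labels, and a legend of the study gives other sizes for PAT1 and PAT3, so the regimen of a mouse may be in doubt for every value of these groups. Whole litters were allotted to a regimen and weaned mice were housed by sex and regimen, so litter and cage cannot be told apart from treatment, nor cage from sex.

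Values are log2 normalized counts, so that a difference of 1 is a change of 2-fold. Total counts per mouse ranged from 171671 to 782392. The shallowest library was PAT1 replicate 1, a male. Probes differ in efficiency, and a level is therefore compared between mice for the same gene only. All 6 genes of the list for small intestinal epithelium were above 0 in every mouse, which is a weak check of the tissue, since only 19 of 13128 values in the table were at 0. In whole tissue, fewer cells of a type and less RNA per cell cannot be told apart.

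Monocytes leave the bone marrow and enter tissue along gradients of CC chemokines, and Ccr2 is the receptor they use for both steps. In the intestine they mature into the macrophages of the lamina propria, whose pool is renewed from the blood throughout life. The ligands are made by macrophages, stroma and endothelium after inflammatory signals, and mouse Ccl8 is known as a ligand of Ccr8.

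The 4 ligand genes lie together on chromosome 11 in the order Ccl2, Ccl7, Ccl11, Ccl12 and Ccl8, while Ccr2 is on chromosome 9. The 250 bases before the start of Ccl8 and of its neighbour Ccl12 are shown because these adjacent genes behaved differently in the same mice. Stretches for Ccl2 and Ccl7 were not available. They are from RefSeq on GRCm38.p6, plus strand, chr11:82114935-82115184 for Ccl8 and chr11:82101595-82101844 for Ccl12, with the letters TATAAA in capitals.
Ccl8: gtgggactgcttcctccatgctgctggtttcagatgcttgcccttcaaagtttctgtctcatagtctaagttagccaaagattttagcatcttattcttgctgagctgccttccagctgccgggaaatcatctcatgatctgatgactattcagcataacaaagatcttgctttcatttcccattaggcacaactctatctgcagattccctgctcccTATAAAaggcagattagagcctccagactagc
Ccl12: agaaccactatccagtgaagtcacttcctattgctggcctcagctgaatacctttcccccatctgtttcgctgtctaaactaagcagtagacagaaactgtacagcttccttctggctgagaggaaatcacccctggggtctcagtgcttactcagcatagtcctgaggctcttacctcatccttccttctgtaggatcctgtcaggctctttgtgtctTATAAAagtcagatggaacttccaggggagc
Aligned over their length, the stretches were 62.0% identical. Both held TATAAA at nearly the same distance from the start, a match found on the forward strand of 7.59% of 32851 mouse promoters of the same length. Searches of both strands for TGANTCA (an AP-1 site, in 6.75% of promoters), and TTCNNNGAA (a gamma-activated site, in 7.02%), and for the interferon-stimulated element (2.98%) and the NF-kB site (45.8%), found no match in either stretch. A search of both strands for TTGCNNAA (a CCAAT enhancer binding site, in 9.56% of promoters) found no match either. These matches are a description of the sequence and were not tied to the measurements below.

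Ccl8 was 3.36-fold lower in PAT1 mice and 3.0-fold lower in PAT3 mice than in Control mice. In Control mice the lowest level was 7.57, the median 8.64 and the highest 9.65. In PAT1 mice they were 5.78, 6.63 and 8.69, and in PAT3 mice 6.36, 6.91 and 7.73. The groups overlapped, but 5 of 7 PAT1 mice and 9 of 10 PAT3 mice lay below the lowest Control mouse. Control mice averaged 8.54 ± 0.75 (SD, n = 7). PAT1 mice averaged 6.79 ± 1.11 (SD, n = 7), and PAT3 mice 6.95 ± 0.50 (SD, n = 10). The difference from Control was -1.75 (SE 0.39) for PAT1 and -1.58 (SE 0.36) for PAT3. Ordered from the most negative difference, Ccl8 stood at place 3 of 547 genes in PAT1 and at place 14 in PAT3. The highest PAT1 level belonged to the shallowest library, PAT1 replicate 1, and without that mouse the PAT1 difference was -2.07 (SE 0.35). Without Control replicate 4, the Control mouse with the highest level, the difference was -1.56 (SE 0.40) for PAT1 and -1.40 (SE 0.37) for PAT3.

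Ccl2, the best known chemokine of this family and the main ligand of Ccr2, was lower by a smaller amount. Its levels ranged from 5.98 to 7.03 in Control (median 6.47), from 4.99 to 6.63 in PAT1 (median 5.95) and from 5.07 to 6.45 in PAT3 (median 6.03). The difference from Control was -0.64 (SE 0.23) in PAT1 and -0.53 (SE 0.21) in PAT3. The groups overlapped, with 6 of 7 PAT1 mice and 10 of 10 PAT3 mice below the Control mean and 5 and 4 of them, respectively, below the lowest Control mouse.

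The remaining ligands did not share this pattern. Ccl7, which also binds other CC receptors, averaged 4.97 ± 0.33 (SD, n = 7) in Control mice. Its averages were 4.96 ± 0.42 (SD, n = 7) after 1 course and 5.10 ± 0.32 (SD, n = 10) after 3 courses. Ccl12, the neighbour of Ccl8 and another ligand of Ccr2, had means of 5.56 ± 0.45 for the 7 Control mice, 5.64 ± 0.55 for the 7 PAT1 mice and 5.59 ± 0.30 (all SD) for the 10 PAT3 mice. For both genes the range of each PAT group covered most of the Control range, and the differences from Control lay between -0.007 and 0.13. The SE was 0.19 in PAT1 and 0.18 in PAT3 for Ccl7, and 0.22 and 0.21 for Ccl12. Split by sex, the Ccl7 difference of PAT1 from Control was 0.31 in males and -0.43 in females.

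Ccr2 averaged 6.63 ± 0.59 in the 7 Control mice, 6.16 ± 0.57 in the 7 PAT1 mice and 6.70 ± 0.21 (all SD) in the 10 PAT3 mice. Its levels ran from 5.68 to 7.61 in Control (median 6.71), from 5.37 to 6.84 in PAT1 (median 6.26) and from 6.32 to 7.06 in PAT3 (median 6.68), so that PAT3 lay wholly within the Control range. The difference from Control was -0.47 (SE 0.24) in PAT1 and 0.07 (SE 0.22) in PAT3.

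**Figure D1:**
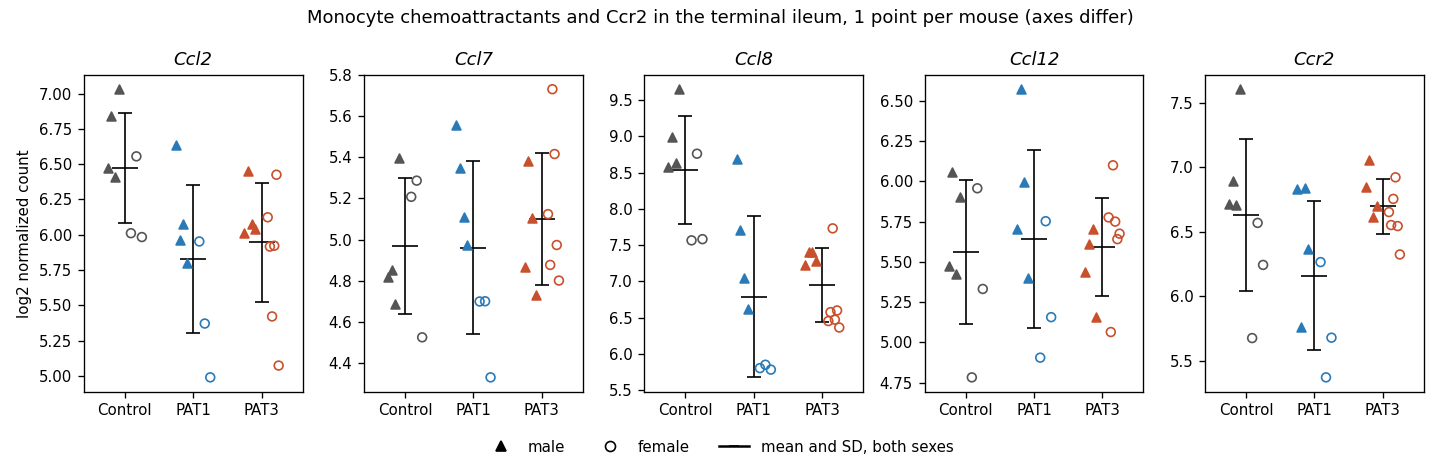
Log2 normalized count of each gene (vertical axis, a separate scale for each gene) in Control, PAT1 and PAT3 mice. Filled triangles are males, open circles females, and bars give the mean and SD of both sexes; Ccl8 stands lowest in the PAT1 females, between 5.78 and 5.85, and highest in Control males, up to 9.65.

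With limma and an adjusted p of 0.05 as threshold, 1 of the 5 genes, Ccl8, was past it against Control in each PAT group, where 18.5% of the 547 genes were past it for PAT1 and 31.8% for PAT3. Since these contrasts chose the genes, nothing is read from that count. Ccl2 also passed in some alternative analyses, and Ccl7 passed as a rise of 0.41 in PAT3 under quantile normalization. The 2 contrasts share the Control mice. Sex was uneven between groups, and with sex as a covariate the Ccl8 difference was -1.75 (SE 0.29) for PAT1 and -1.40 (SE 0.27) for PAT3. Taken over all genes, a Control mouse had a median level of 6.97, against 6.82 for PAT1 and 6.78 for PAT3. After each mouse was re-centred on its own median, the Ccl8 differences were -1.60 and -1.39, those of Ccl2 -0.50 and -0.33, and those of Ccl7 0.14 and 0.32. The PAT1 difference of Ccl7 thus turned from -0.007 to a positive value.

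**Figure D2:**
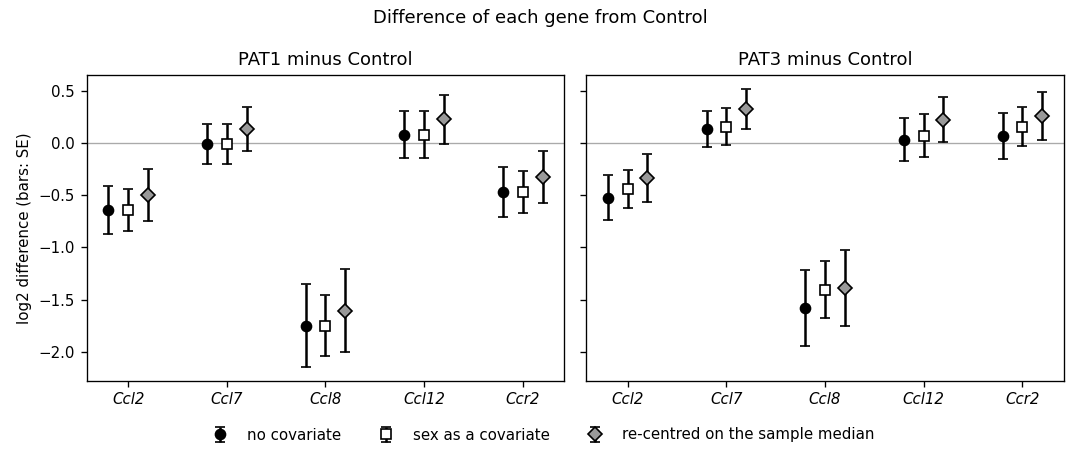
Difference of each gene from Control on the log2 scale (vertical axis, bars are the SE), for PAT1 on the left and PAT3 on the right. Circles have no covariate, squares have sex as a covariate and diamonds are values re-centred on each mouse's median; Ccl8 lies between -1.75 and -1.39 in all of them and Ccl7 and Ccl12 between -0.007 and 0.32.

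A ratio of genes within a mouse does not depend on the scaling factor of that mouse. The log2 ratio of Ccl8 to Ccl12 was 2.98 ± 0.46 in Control mice, 1.15 ± 0.90 in PAT1 mice and 1.36 ± 0.54 in PAT3 mice (mean ± SD of 7, 7 and 10). The ratio of Ccl8 to Ccl2 was 2.07 ± 0.37, 0.96 ± 0.74 and 1.01 ± 0.62 in the same order. Both ratios had lower means in the PAT groups, as a description with no test.

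Whether 3 courses differed from 1 was tested directly, on a contrast that the choice of genes did not use. The choice did use low Ccl8 in both PAT groups, so the Ccl8 result here is not free of it. None of the 5 genes passed (limma, adjusted over all genes), in a contrast where 4.2% of genes did. For Ccl8 the difference of PAT3 from PAT1 was 0.16 (SE 0.36, 95% interval -0.58 to 0.91, adjusted p = 0.799), an interval wide enough to hold a clear difference in either direction. For Ccl2 it was 0.12 (95% interval -0.32 to 0.56, adjusted p = 0.757), for Ccl7 0.14 (-0.22 to 0.50, adjusted p = 0.639) and for Ccl12 -0.05 (-0.48 to 0.38, adjusted p = 0.912). The receptor had the largest difference of the 5. Ccr2 was higher in PAT3 than in PAT1 by 0.54 (SE 0.22, 95% interval 0.08 to 0.99), which did not pass after adjustment (limma, p = 0.0228, adjusted p = 0.113).

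Ccl8 differed between the sexes. Compared within regimens, it was 2.07-fold lower in females than in males, a log2 difference of -1.05 (SE 0.23, 95% interval -1.52 to -0.59, limma adjusted p = 0.0267). In this contrast 0.366% of genes passed, which is 2 genes, Ccl8 and Nox1, an epithelial oxidase gene named after its value was seen (-1.11, limma adjusted p = 0.0267). In Control the 4 males had Ccl8 at 8.58, 8.98, 8.64 and 9.65 and the 3 females at 7.57, 8.76 and 7.58. In PAT1 the males had 8.69, 7.71, 7.05 and 6.63 and the females 5.81, 5.85 and 5.78, without overlap. In PAT3 the males had 7.23, 7.41, 7.41 and 7.28, while 5 of 6 females lay between 6.36 and 6.60 and the other, PAT3 replicate 7, at 7.73. The female mean was thus lower in 3 of 3 groups, by -0.99 in Control, -1.70 in PAT1 and -0.63 in PAT3.

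The call on sex was close to the threshold. It was lost without Control replicate 4 (limma adjusted p = 0.0584), Control replicate 5 (0.0776), Control replicate 7 (0.0585), PAT1 replicate 5 (0.0765), PAT1 replicate 6 (0.0745) or PAT3 replicate 10 (0.0502), and under quantile normalization (0.0742). The size of the difference moved little, between -1.15 and -0.92, whichever mouse was left out. Without PAT3 replicate 7, the female with high Ccl8, the adjusted p was 0.00600. With the size factor as a covariate over all groups, the difference was -0.96 (SE 0.19, limma adjusted p = 0.0127).

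The same direction was seen for Ccl2 and Ccr2, without passing the test. Females were lower by -0.48 for Ccl2 (SE 0.15, 95% interval -0.80 to -0.17, limma adjusted p = 0.171) and by -0.51 for Ccr2 (SE 0.16, 95% interval -0.84 to -0.19, limma adjusted p = 0.171), in 3 of 3 groups for both. In Control the female mean of Ccr2 was 6.16 and the male mean 6.98. For Ccl7 the difference was -0.12 (limma adjusted p = 0.852) and for Ccl12 -0.22 (limma adjusted p = 0.721).

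Split by sex, the Ccl8 differences that chose the gene are given as a description with no test. In males the difference from Control was -1.44 for PAT1 and -1.63 for PAT3, and in females -2.16 and -1.27. Whether the regimens acted differently in the sexes was tested by an interaction (F-test in limma), where 0.183% of genes passed and none of the 5 did. The adjusted p was 0.426 for Ccl8, 0.272 for Ccl7 (unadjusted p = 0.0474), 0.394 for Ccl12, 0.462 for Ccr2 and 0.817 for Ccl2. The PAT1 means of Ccl7 were 5.25 in males and 4.58 in females, whereas the female means were the higher ones in Control and PAT3.

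After group means were removed, the 5 genes tended to vary together from mouse to mouse. All 10 pairs had a positive Pearson r, and 6 passed after adjustment over 25 relations (permutation within groups, two-sided, n = 24 mice). The share among pairs of other panel genes was not computed. These counts are therefore not read as a trait of the 5 genes. Ccl8 followed Ccl2 (r = 0.65, adjusted permutation p = 0.00720, Spearman's rho 0.61, adjusted permutation p = 0.0192), with r = 0.61 without the 2 mice farthest in Ccl2. The relation of Ccl8 to Ccl2 was close in Control (r = 0.98) and in PAT1 (0.82) and weak in PAT3 (0.11). Ccl8 also followed Ccl7 (r = 0.66, adjusted permutation p = 0.00720, rho 0.62, adjusted permutation p = 0.0192), with r = 0.53 without the 2 farthest mice and with 0.44 in Control, 0.95 in PAT1 and 0.40 in PAT3. Ccl2 and the receptor Ccr2 had r = 0.71 (adjusted permutation p = 0.00250, rho 0.60, adjusted permutation p = 0.0192), 0.71 without the 2 farthest mice, and 0.91, 0.79 and 0.50 in the 3 groups. The other pairs that passed were Ccl8 with Ccr2 (r = 0.67), Ccl8 with Ccl12 (0.58) and Ccl7 with Ccl12 (0.55).

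When the means of each sex within each group were removed as well, a step added after seeing the data, 2 of the 25 relations passed. Ccl7 with Ccl8 was one (r = 0.72, adjusted permutation p = 0.00250) and Ccr2 with the macrophage markers below the other (r = 0.62, adjusted permutation p = 0.0387), while for Ccl2 with Ccl8 r was 0.38 (adjusted permutation p = 0.207) and for Ccl2 with Ccr2 0.56 (adjusted permutation p = 0.0825). Mice of a litter or cage are not independent, so these p-values measure only the spread among the mice at hand. The relations with depth did not pass on the deposited scale. The log2 size factor had r = -0.51 with Ccl8 (rho -0.27, adjusted permutation p = 0.0732 for r) and -0.50 with Ccl7 (adjusted permutation p = 0.0591), and the first became -0.17 without PAT1 replicate 1 and PAT3 replicate 7. After re-centring on the median both passed, with r = -0.58 for Ccl8 (adjusted permutation p = 0.0384) and -0.59 for Ccl7 (adjusted permutation p = 0.0294). On the deposited scale within PAT1 alone, the size factor had r = -0.87 with Ccl8, -0.90 with Ccl2 and -0.89 with Ccl7. In the same order r was 0.26, 0.29 and 0.51 in Control and -0.20, 0.67 and -0.47 in PAT3. The part of depth in the PAT1 relations between these genes was not tested. A fit that held the size factor constant gave Ccl8 differences from Control of -2.13 in PAT1 and -1.67 in PAT3.

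**Figure D3:**
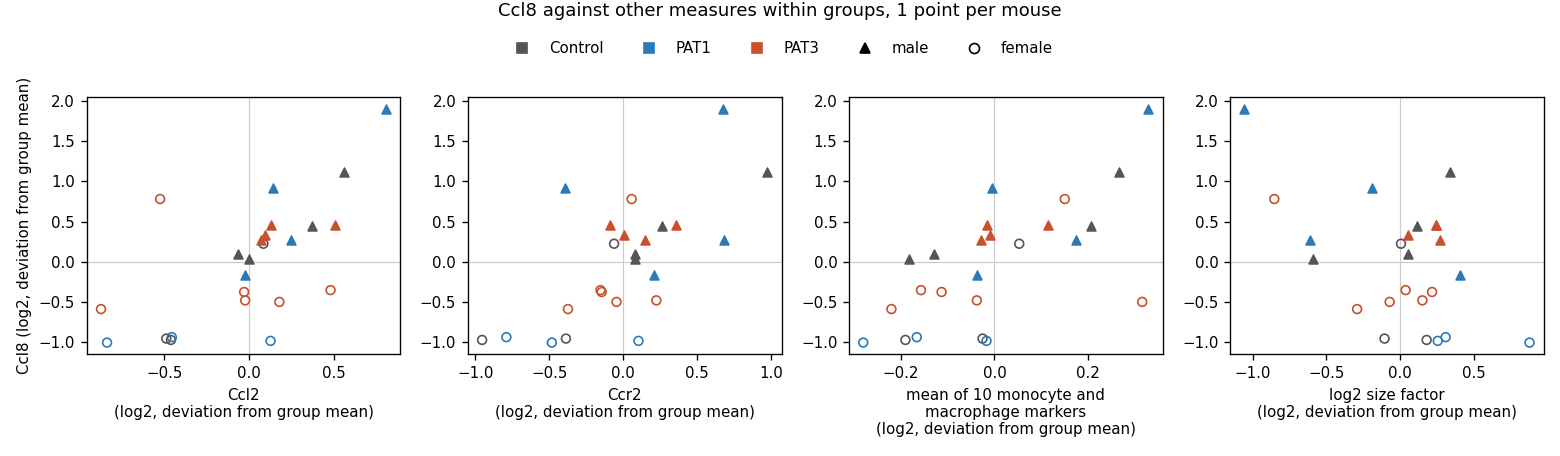
Ccl8 (vertical axis) against Ccl2, Ccr2, the mean of 10 monocyte and macrophage markers and the log2 size factor (horizontal axes), each as the log2 deviation of a mouse from its group mean. Colours give the group, triangles males and circles females; females lie mostly in the lower part, and r was 0.65, 0.67, 0.66 and -0.51 from left to right.

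Of 17 names listed for monocytes and macrophages, older and newer symbols included, 10 were on the panel and none was at 0 in any mouse. Their summed level was 2080 to 2955 normalized counts in Control (median 2348), 1655 to 2319 in PAT1 (median 1928) and 1809 to 2565 in PAT3 (median 2053). Of these 10, 2 fell in both PAT groups and none rose, a share close to the 18.5% of all genes past the threshold in PAT1 and below the 31.8% in PAT3. Itgam, an integrin of myeloid cells, changed by -0.92 in PAT1 (limma adjusted p = 0.000865) and -0.68 in PAT3 (0.00353), and Msr1, a scavenger receptor of macrophages, by -0.61 (0.00516) and -0.46 (0.0155). The median over the 10 was -0.18 in PAT1 and -0.28 in PAT3, beside 0.01 and 0.03 over all genes. Within groups the mean of the 10 followed Ccl8 (r = 0.66, adjusted permutation p = 0.00720, rho 0.68, adjusted permutation p = 0.0105), Ccr2 (r = 0.67), Ccl2 (r = 0.63) and Ccl7 (r = 0.59), and for Ccl12 r was 0.50 (adjusted permutation p = 0.0584). By group, r of this mean with Ccl8 was weakest for PAT3 mice (0.33), against 0.71 for Control mice and 0.83 for PAT1 mice. For Ccl2 the PAT3 value was 0.17 and the PAT1 value 0.97. With sex means removed as well, Ccl8, Ccl2 and Ccl7 did not pass (adjusted permutation p = 0.101, 0.119 and 0.124), while Ccr2 did. After re-centring, r passed for Ccl8 (0.60, adjusted permutation p = 0.0384) but rho did not (0.44, 0.0915). Without the 2 farthest mice, that r was 0.33. The part of monocytes and macrophages in the Ccl8 difference was not tested. Over the 3 groups together, the mean of the B cell markers passed with none of the 5 genes, with r from -0.34 to 0.06. In PAT3 alone r was 0.82 with Ccl7 and 0.81 with Ccl12, which was not tested, and from -0.31 to 0.46 with the others. For Ccl7 and Ccl12 it was 0.10 and -0.48 in Control and -0.20 and 0.08 in PAT1.

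The genes most like each member were taken by Pearson r over 24 mice among 442 genes after group means were removed. For Ccl8 they were Tyrobp (r = 0.81) and Fcer1g (0.77), signalling adaptors of myeloid receptors, and Fcgr1 (0.79), a macrophage antibody receptor that is also in the marker list. For Ccl7 they were Fcer1g (0.77), Tyrobp (0.70) and the complement gene C1qa (0.69). For Ccl12 they were Cxcl9 (0.76), an interferon-induced chemokine, Klrk1 (0.71) and C1qb (0.69). Ccl2 and Ccr2 shared C7, a complement gene, as the nearest one (0.84 and 0.87), followed by Tnfaip6 (0.69) and Fcgr3 (0.68) for Ccl2 and by Ptafr (0.72) and Fcgr2b (0.70) for Ccr2. With group means left in, Ccl8 was most like Tnfrsf17 (0.82), a plasma cell receptor, and the chemokines Cxcl9 (0.82) and Cxcl10 (0.80). Such values still hold the difference from Control that chose Ccl8, so this likeness is not separate from that choice.

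Other CC chemokines moved in both directions. Of 12 on the panel (17 were listed), 3 rose and 2 fell in PAT1 and 2 rose and 3 fell in PAT3, with a median difference of 0.10 and 0.01. Over all 547 genes, 18.5% passed in PAT1 and 31.8% in PAT3. Ccl11, an attractant of eosinophils that lies between Ccl7 and Ccl12, rose by 0.77 (SE 0.21, limma adjusted p = 0.00902) in PAT1 and by 0.84 (SE 0.19, adjusted p = 0.00154) in PAT3. Ccl25, which draws lymphocytes to the small intestine, rose by 1.13 (SE 0.20, limma adjusted p = 0.000343) and 0.81 (SE 0.18, adjusted p = 0.00154). Ccl5, a T cell chemokine, changed by -1.32 (SE 0.34, limma adjusted p = 0.00568) and -1.97 (SE 0.31, adjusted p = 2.25e-05). Ccl22, made by dendritic cells and macrophages, changed by -1.0 (SE 0.24, limma adjusted p = 0.00433) and -1.13 (SE 0.22, adjusted p = 0.000385). None of the 12 passed between PAT3 and PAT1 or between the sexes, where 4.2% and 0.366% of all genes did.

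**Figure D4:**
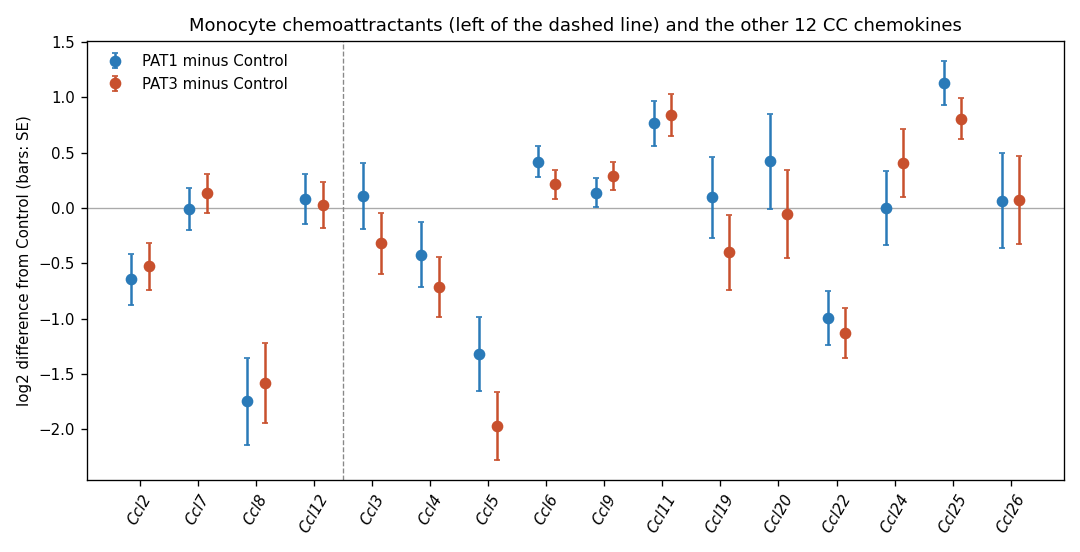
Difference from Control on the log2 scale (vertical axis, bars are the SE) for the 4 monocyte chemoattractants, left of the dashed line, and the other 12 CC chemokines on the panel. Blue points are PAT1 and orange points PAT3; Ccl8, Ccl5 and Ccl22 lie lowest and Ccl25 and Ccl11 highest in both.

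Among 7 other CC receptors and scavenging receptors (12 were listed), none rose and 1 fell in PAT1, and 1 rose and 1 fell in PAT3. The share of all genes that passed was 18.5% in PAT1 and 31.8% in PAT3. Ccr10 changed by -0.77 (limma adjusted p = 0.0295) in PAT1 and -0.76 (0.0129) in PAT3, and Ccrl1, an atypical receptor that removes chemokine, rose by 0.75 in PAT3 (limma adjusted p = 0.00615). Ccr8, a known receptor of mouse Ccl8, was listed at 0 in 2 mice and differed from Control by 0.13 and 0.18 (limma adjusted p = 0.929 and 0.828).

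Of 17 genes for signals that induce these chemokines, all on the panel, 5 fell and none rose in PAT1, and 4 fell and 3 rose in PAT3. These counts stand beside 18.5% of all genes past the threshold in PAT1 and 31.8% in PAT3. Tlr2, a sensor of bacterial lipoproteins, changed by -1.18 (limma adjusted p = 0.000355) and -1.0 (0.000334). Irf1, a transcription factor of the interferon response, changed by -0.66 in PAT1 (limma adjusted p = 0.00371) and by -0.63 in PAT3 (0.00181). Nfkb2 rose by 0.53 in PAT3 (limma adjusted p = 0.00360). Among the cytokines of the list, Il1b, an inflammatory cytokine of myeloid cells, fell in both groups (-0.74, limma adjusted p = 0.0172, and -0.78, adjusted p = 0.00467). Tnf and Ifng differed from Control by -0.004 and -0.15 in PAT1 and by -0.33 and -0.55 in PAT3, and neither passed. The median of the list was 0.00 in PAT1 and -0.05 in PAT3.

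Of 11 genes for growth and adhesion of monocytes (12 were listed), none passed in PAT1 and 1 fell in PAT3, the integrin gene Itgal (-0.97, limma adjusted p = 3.69e-05), which T cells also express. For this list and those that follow, the share of all genes past the threshold was 18.5% in PAT1 and 31.8% in PAT3. Markers of other cells moved with the groups too. Of 8 T cell genes (9 were listed), 2 fell in PAT1 and 7 in PAT3, among them Cd3e (-0.90 and -1.38) and Cd8a (-0.94 and -1.84) in both, and Cd3d (-1.27) and Lck (-1.09) in PAT3. Of 9 B cell genes, none passed in PAT1 and Cd79b fell in PAT3 (-1.26). Of 6 genes of mast cells and granulocytes (10 were listed), Kit rose (0.68) and S100a9 fell (-0.96) in PAT3 and none passed in PAT1, and of 7 genes of endothelium and stroma (8 were listed) Pdgfrb rose in PAT3 (0.73). Of the 6 epithelial genes, Ccl25 rose and Pigr (-1.32 and -0.90) and Ceacam1 (-1.26 and -1.05) fell in both PAT groups, and Abcb1a rose in PAT3 (1.01). The summed T cell markers ran from 851 to 1045 normalized counts in Control, 504 to 1117 in PAT1 and 346 to 602 in PAT3. The part of these shifts in the levels of the chemokines was not tested. Between PAT3 and PAT1, 4 of the 8 T cell genes and 1 of the 9 B cell genes were lower in PAT3 (calls lost without single mice named with the alternatives, and with the size factor as a term). In that contrast 4.2% of all genes passed. None of the listed genes passed in the contrast of the sexes.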

How the data were processed

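RNA from the terminal ileum of 24 mice was counted on the NanoString mouse immunology panel. The authors normalized the counts with DESeq2 size factors and deposited log2 values for 547 genes, which were used as deposited. Dividing by the step of each mouse gave whole counts for 100% of values (tolerance 0.01 counts), from which totals and size factors were taken. The median total was 580162 counts. 19 values were listed at 0. The labels name TRIzol with a column and the methods another kit, so the extraction is not settled. Counting error alone sets a limit for Ccl7, the gene with the lowest counts.

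Groups and sex came from the labels. limma 3.58.1 in R 4.3.3 was fitted to all genes, with regimen as the term (PAT1 or PAT3 against Control, PAT3 against PAT1), regimen and sex for the contrast of the sexes, and their interaction for the F-test, and p-values were adjusted by Benjamini-Hochberg over 547 genes with a threshold of 0.05. It was tested on simulated data. Covariation was tested with 100000 permutations within groups. The alternatives were quantile normalization, re-centring on the median, a pseudocount of 1, a filter at a mean log2 value of 4, the size factor or sex as a covariate, voom on recovered counts, the methods' test (analysis of variance with Tukey's procedure per gene) and leaving out each mouse. Removal of sex means from the covariation was added after seeing the data. Named genes were the 5 members, up to 4 genes per list past the threshold by smallest adjusted p, and the 3 genes most correlated with each member. Il1b, Tnf, Ifng, Ccr8 and Nox1 were named after their values were seen. The members and lists were chosen with earlier results of these data known. A gene that this rule names is not reported here.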

Additional observations from a re-analysis of the deposited data

How the results depend on the processing

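No paired analysis was possible because the labels carry no replicate numbers, and those used here only name the mice. None of the results changed direction while past the threshold. Of the 5 genes, 1 (Ccl8) was past the threshold against Control. In PAT1 it became 2, with Ccl2 added, under the low filter, with the size factor or sex as a covariate and with voom. In PAT3 it became 2 with Ccl7 added under quantile normalization, as a rise, and with Ccl2 added under the low filter or the size factor. Leaving out single mice gave 1 to 2 in both contrasts, 2 without Control replicates 5 or 7 or PAT1 replicate 1 in both, without PAT3 replicates 7 or 10 in PAT1, and without PAT1 replicate 7 or PAT3 replicates 2 or 9 in PAT3, each time with Ccl2 added. The number of genes past the threshold then ran from 88 to 117 in PAT1 and from 148 to 211 in PAT3. Between PAT3 and PAT1, 23 genes passed by limma, with 57 after re-centring, 44 with the low filter, 47 with voom, 0 with the size factor as a covariate (122 at an unadjusted p under 0.05) and 0 by the methods' test (95 unadjusted), and 0 to 102 without single mice (0 without PAT1 replicates 1, 2, 4 or 7 or PAT3 replicates 1 to 6, 8 or 9, and 55 to 102 without PAT1 replicates 5 or 6 or PAT3 replicates 7 or 10), but none of the 5 genes in any of these (0 to 0). Between the sexes 2 genes passed, with 0 under quantile normalization (63 unadjusted), 5 with the low filter, 5 with the size factor as a covariate and 0 to 7 without single mice. The 1 member among them, Ccl8, was 0 under quantile normalization and 0 to 1 without single mice. In the interaction 1 gene passed, with 0 under quantile normalization (61 unadjusted), 2 after re-centring, 0 with the low filter (82 unadjusted), 0 with the size factor as a covariate (15 unadjusted) and 0 to 4 without single mice, with 0 to 0 of the 5 genes. Of the relations, 10 passed, 14 after re-centring (the gains include the size factor with Ccl7 and with Ccl8) and 2 with group and sex means removed. Among single genes and relations under all alternatives, 47 values gained the threshold and 143 lost it. This count leaves out the 5 genes against Control, whose gains are given above. The causes were not tested. Ccl8 differed from Control by -2.07 to -1.56 in PAT1 and by -1.75 to -1.40 in PAT3 over the mice left out. A list gene near the threshold can be lost under an alternative, and groups of 7 to 10 mice limit what small differences can be seen.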
